A study of Mus musculus with 26 samples.

Results

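RNA-seq of the Grb10 RNA truncation mutant (Grb10 pA) was compared with that of parental WT cells after differentiation to neural progenitor cells (NPCs). The comparison took 6 of the 26 libraries of the series by their labels, 3 of NPC Grb10 pA and 3 of NPC WT, and described them across all genes. WT cells were E14TG2a, a mouse embryonic stem cell (ESC) line. Grb10 pA cells were made from them by CRISPR-Cas9, in which eGFP behind a self-cleaving peptide, followed by an SV40 polyadenylation signal, was knocked in on both alleles by the account of the study, so that transcription should end within Grb10. ESCs of both lines were grown with leukemia inhibitory factor, CHIR99021 and PD0325901, and NPCs were collected after 2 days on laminin in N2B27 medium without these additions. The labels do not say how many mutant clones the libraries came from, and effects of the truncation and other differences between the mutant cells and WT cannot be told apart. The eGFP insert also ends the protein, so that loss of the RNA and loss of the protein cannot be told apart either. ESC libraries of the same lines (3 of each) and 3 libraries of NPC Podxl pA, a line with the same cassette in Podxl, were used to show where the NPC Grb10 pA libraries differed.

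Grb10 encodes an adaptor protein that binds activated insulin and IGF1 receptors through an SH2 domain, restrains their signal and is itself a substrate of mTORC1. The gene is imprinted, with expression from the maternal allele in most tissues and from the paternal allele in neurons. Early neural progenitors leave pluripotency by silencing factors such as Nanog and Klf4 and turning on SoxB1 genes, of which Sox1 is the classic first marker of neural fate.

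The site of the truncation is shown with the guide that directed the cut, since what is counted on Grb10 afterwards depends on it. The first line below is the guide, with the 18 bases that match the transcript in capitals. The second is the end of exon 3 of Grb10 as it reads in the transcript, with the same bases in capitals.
guide for Grb10 pA: GCCTGTGCACATTCTCAGgt
last 30 bases of exon 3: gcaacgctcgcaGCCTGTGCACATTCTCAG
The matched bases lie at chr11:11970423-11970440 (GRCm38, minus strand), at the very end of exon 3 of 17, which is the first coding exon of Grb10 in GENCODE M21. The last 2 bases of the guide fall past the exon. No transcript of another gene held the 18 bases, and 6 of the 9 annotated Grb10 transcripts did. The donor's homology ended at base 16 of the guide, so that 192 coding bases, or 64 codons, were left ahead of the insert. The insert left 507 bases of this transcript of 5061 bases ahead of it and 4554 behind it.

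Grb10 RNA was almost lost in the mutant NPCs. NPC WT libraries held 3587, 3742 and 3798 normalized counts of Grb10 (counts scaled by library size and TMM factor), and NPC Grb10 pA libraries held 277.1, 244.1 and 243.3. The lowest WT library was thus far above the highest mutant library. Grb10 (chr11:11930508-12038683, minus strand) was down-regulated to 0.0691 of WT, with a log2 fold change of -3.86 (SE 0.09, adjusted p = 4.9e-22). As in all tests below, this was the quasi-likelihood test of edgeR with Benjamini-Hochberg adjustment over all genes. Grb10 was lower in ESCs to begin with, and there it went from 576 ± 23.8 (SD, n = 3) to 154.6 ± 11.8 normalized counts, a log2 fold change of -1.89. The fall was larger in NPCs than in ESCs (difference of -1.96 on the log2 scale, adjusted p = 1.1e-10). Grb10 levels in NPC Grb10 pA lay below those of ESC WT. Counts by gene do not show whether the remaining reads came from the bases ahead of the insert. The study reports that it verified the truncation by RT-qPCR of Grb10 downstream of the insert, an assay apart from these counts.

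Genes beside Grb10 were also examined, because the study truncated the RNA to ask about its role in cis. Of 23 genes with a start within 1 Mb of Grb10, 5 had enough counts to be tested, Grb10 included. Of these, 3 were down-regulated, Grb10 itself among them, and none up-regulated (60%, beside 8.64% of all genes down-regulated). Ddc, which lies next to Grb10 and encodes the enzyme that makes dopamine and serotonin from their precursors, had 55.9, 65.6 and 50.3 normalized counts in NPC WT and 22.04, 15.11 and 27.12 in NPC Grb10 pA. The groups did not overlap, as was the case for 43.6% of all genes tested, and Ddc fell by 1.41 on the log2 scale (SE 0.20, adjusted p = 9.3e-06). In ESCs, Ddc had a log2 fold change of -0.06, and the difference between cell types passed the test (adjusted p = 0.002). Ikzf1, a lymphoid zinc finger factor, was low throughout, at 15 to 23.6 normalized counts in NPC WT and 3.99 to 8.4 in NPC Grb10 pA (log2 fold change -1.49, SE 0.42, adjusted p = 0.0098), and it was not called without NPC Grb10 pA replicate 3. Cobl, an actin nucleator, had a log2 fold change of -0.40 and did not reach the fold cutoff. Fignl1, an ATPase of DNA repair, had one of -0.09 (SE 0.11). In NPC Podxl pA, which was compared with the same WT libraries, the log2 fold changes were -0.44 for Grb10, -0.55 for Ddc and -0.70 for Ikzf1, and none of the 3 was called.

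**Figure D1:**
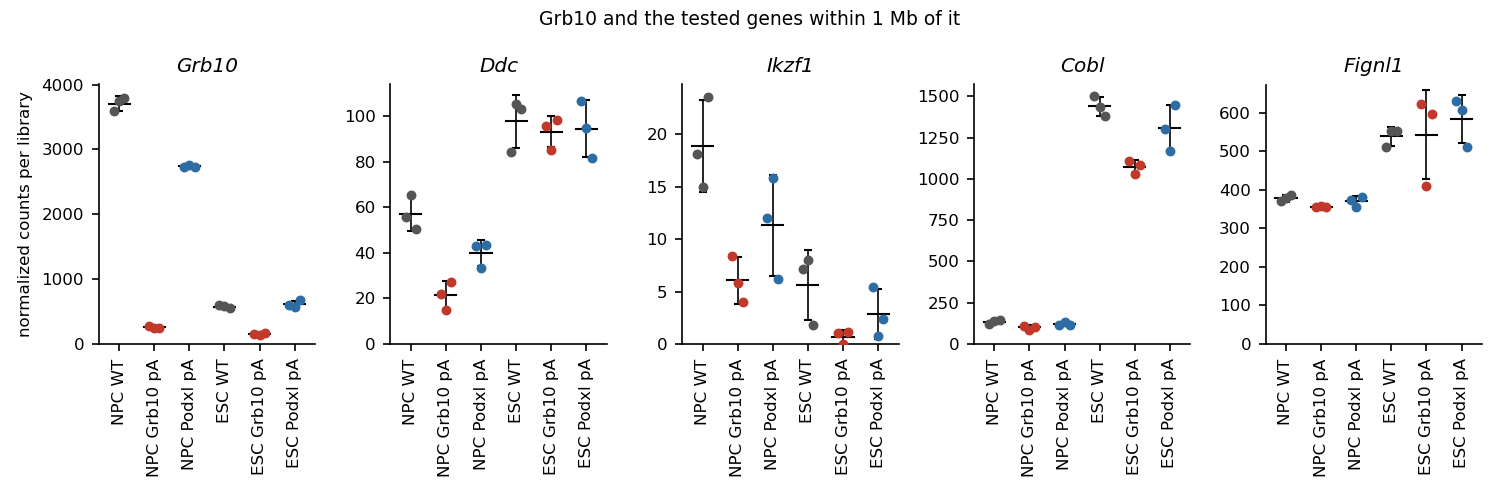
Normalized counts (y axis, from 0) of Grb10 and of the 4 other tested genes within 1 Mb of it, with a point for each library, lines for the mean and SD of 3 libraries, and 6 groups along the x axis. Grb10 was at 243.3 to 277.1 in NPC Grb10 pA and at 3587 to 3798 in NPC WT, and of the neighbours Ddc and Ikzf1 were lower in NPC Grb10 pA without overlap.

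Library depths ranged from 2935069 to 6513043 counts on genes in NPC WT and from 3992194 to 8845087 in NPC Grb10 pA. The culture label was checked against marker genes. Sox1 rose from 22 ± 3.7 normalized counts (SD, n = 3) in ESC WT to 369.9 ± 22.7 in NPC WT, and Nanog went from 4004 ± 93.3 to 529.6 ± 44.3. Pou5f1, the core pluripotency factor also called Oct4, was still at 1459 ± 113 in NPC WT. Of the other progenitor markers, Pax6 was higher in NPC WT (36.83 ± 5.39) than in ESC WT (12.04 ± 7.79), at a low level. Nes did not differ beyond its spread between ESC WT (112 ± 12.2) and NPC WT (103 ± 14.5). Zic1 overlapped, at 0 to 5.59 normalized counts in ESC WT and 0.71 to 12.08 in NPC WT. Hes5 and Fabp7 had at most 1 count in any NPC WT library. The cells are thus called NPCs after their label, at a stage where Sox1 was on and Pou5f1 was not yet lost. In these bulk libraries, fewer cells of a type and less RNA per cell cannot be told apart. By flow cytometry of Sox1 protein, the study compared the percentage of positive cells in both truncation lines with parental WT. It reports that both lines could form NPCs that express Sox1. The only mark its legend defines for that comparison is not significant. The RNA counts used here do not measure shares of such cells.

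A gene counted as dysregulated where its adjusted p-value did not exceed 0.05 and its log2 fold change was 0.5 or more, up or down. Of 13268 genes tested, 2195 (16.5%) were dysregulated in NPC Grb10 pA, with 1048 (7.90%) up-regulated and 1147 (8.64%) down-regulated. The same test called 1206 genes (9.09%) in ESC Grb10 pA, 598 of them (4.51%) up-regulated and 608 (4.58%) down-regulated, and 73 genes (0.55%) in NPC Podxl pA. Replicates were less alike in ESCs. Their spread, as chi-square per degree of freedom, was 12.22 and 24.66 for pairs with ESC WT replicate 1. It was 16.03 and 20.26 for pairs with ESC Grb10 pA replicate 2, and 4.04 and 2.09 for the other pair of each group. In NPC WT and NPC Grb10 pA it was 2.64 to 4.74. Without these ESC libraries in turn, 1032 and 1072 genes were called in ESCs. Whether this spread lowered the number of ESC calls was not tested. Much of the down-regulated side in NPC Grb10 pA came from chromosome 8. On chromosome 8, 325 of 737 genes (44.1%) were dysregulated. Off chromosome 8 it was 1870 of 12531 (14.9%), with 1038 (8.28%) up-regulated and 832 (6.64%) down-regulated.

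Chromosome 8 as a whole was lower in the Grb10 pA line, and this was among the facts by which the comparison was chosen, so that it is described here without a test. Counts of called genes on it, above and below, come from the tests by gene. They describe the same shift and lend it no further support. The median log2 fold change of its tested genes was -0.48 in NPCs, or 0.717 of WT, with quartiles at -0.70 and -0.23 over 737 genes. Across the remaining 18 autosomes, medians ran from -0.06 to 0.06. In ESC Grb10 pA, which shares no library with the NPC comparison, the median of chromosome 8 was -0.49, or 0.714 of WT, and in NPC Podxl pA it was -0.02. Chromosome 8 held 6.40% to 6.52% of all counts in the NPC WT libraries, 4.52% to 4.67% in NPC Grb10 pA and 6.31% to 6.38% in NPC Podxl pA. In ESCs these shares were 6.25% to 6.44% in WT and 4.20% to 4.43% in Grb10 pA. No Grb10 pA library of either cell type reached the share of any WT library. Over the 9 pairs of a mutant and a WT library in NPCs, the median ran from -0.48 to -0.45.

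**Figure D2:**
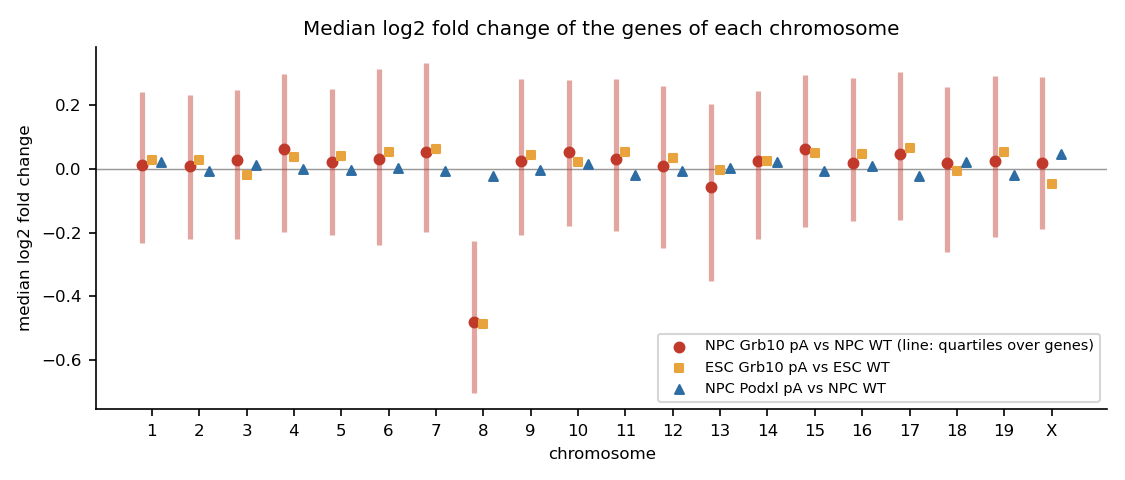
Median log2 fold change over the tested genes (y axis) of each chromosome (x axis) for 3 comparisons, with vertical lines for the quartiles over genes in NPC Grb10 pA against NPC WT. Chromosome 8 stood at -0.48 in NPCs and -0.49 in ESCs of the Grb10 pA line, while all other medians drawn lay near 0.

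The shift ran along the whole chromosome. When its tested genes were split into 10 bins by their order along chromosome 8, the median log2 fold change of a bin lay between -0.57 and -0.41, and the first and last bins were both at -0.54. It was present at all levels of expression, at -0.35 in the lowest of 3 classes by mean count, -0.49 in the middle class and -0.51 in the highest. Of the 737 genes, 315 (42.7%) were down-regulated, 10 (1.36%) were up-regulated, and 87.4% had a log2 fold change below 0. When the chromosome's own median was subtracted in the model, 44 genes of chromosome 8 (5.97%) were down-regulated and 60 (8.14%) up-regulated, beside 6.53% and 8.23% of the genes elsewhere. That median came from the same libraries, so that these shares are a description too. Several genes that matter below lie on chromosome 8 (Sox1, Tubb3, Klf2, Insr, Irs2, Eif4ebp1, Pik3r2, Zfp42, Cdh1 and Ctcf), and for these the value relative to the chromosome's median is given as well.

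**Figure D3:**
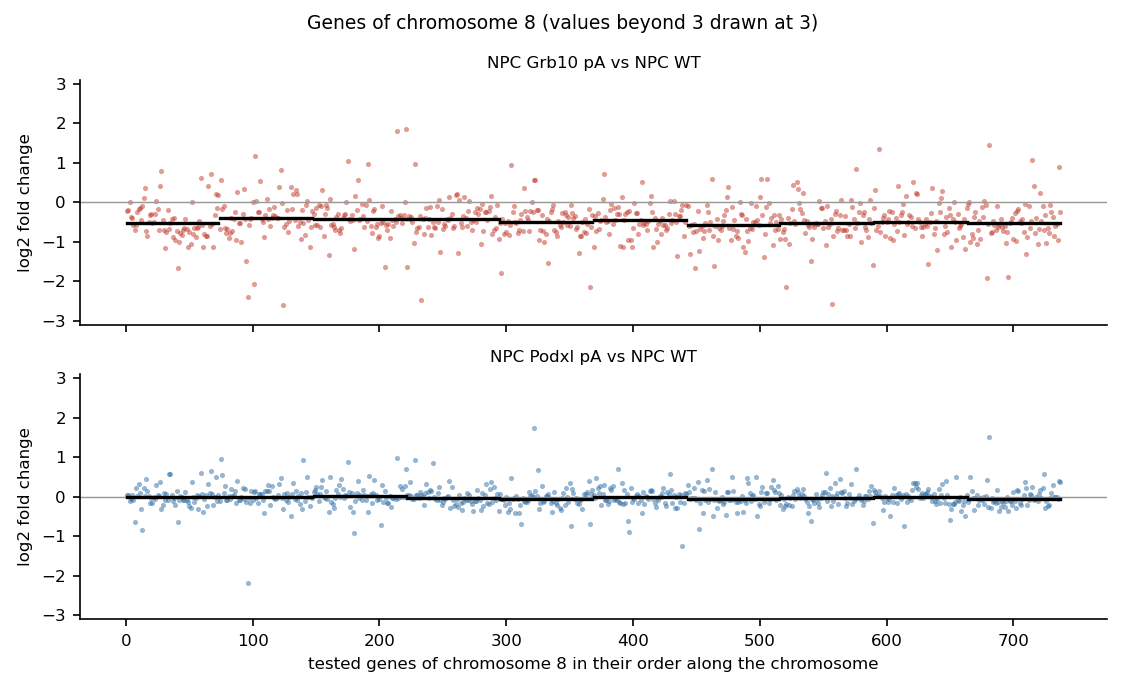
Log2 fold change (y axis) of each tested gene of chromosome 8 in its order along the chromosome (x axis), in NPC Grb10 pA (top) and in NPC Podxl pA (bottom) against the same NPC WT libraries, with a black line for the median of each of 10 bins. The medians lay between -0.57 and -0.41 along the whole top panel, while the points of the bottom panel centred near 0.

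Among well-expressed chromosome 8 genes (mean of 100 normalized counts or more) whose groups did not overlap, those that fell farthest were Tubb3, Sox1, Zfp423, Slc10a7 and Armc6. Zfp423, a zinc finger factor of BMP signalling and cerebellar development, had 536 to 668 normalized counts in NPC WT and 222 to 280 in NPC Grb10 pA. Its log2 fold change was -1.30 (SE 0.12, adjusted p = 7.9e-09), and -0.82 relative to the chromosome. Slc10a7, a transporter of the bile acid carrier family, had a log2 fold change of -1.29, and Armc6 one of -1.28. Setd6, a lysine methyltransferase, was the only chromosome 8 gene that met these conditions and was up-regulated, from 151 to 161 normalized counts in NPC WT to 222 to 250 in NPC Grb10 pA (log2 fold change 0.60, adjusted p = 0.00021). Gpi-ps, a pseudogene of the glycolytic gene Gpi1 on chromosome 8, also rose (log2 fold change 0.80), but its reads can be shared with Gpi1 on chromosome 7, which rose by 0.94.

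The largest rises among well-expressed genes were led by Tex13b, Txnip and Aldoc. Tex13b, an X-linked testis gene, went from 16.6, 29.9 and 44.0 normalized counts in NPC WT to 269.8, 260.4 and 262.4 in NPC Grb10 pA. It was 8.78-fold higher in the mutant (log2 fold change 3.13, SE 0.19, adjusted p = 5.3e-12), also rose in ESCs (2.75), and rose to a lesser degree in NPC Podxl pA (1.20 against the same WT libraries). Txnip, an arrestin-fold protein that limits glucose uptake and is induced by glucose, had 1359, 1333 and 1316 normalized counts in NPC WT and 6064, 6372 and 5684 in NPC Grb10 pA. Every mutant library was far above every WT library, and the log2 fold change was 2.18 (SE 0.08, adjusted p = 3.2e-16). Txnip rose less in ESCs (1.03). Aldoc, the brain form of the glycolytic enzyme aldolase, rose by 2.04. Rras, a small GTPase of integrin signalling, rose by 1.73, Gm2a, the activator of lysosomal ganglioside breakdown, by 1.68, and Ap1s2, a subunit of the clathrin adaptor AP-1, by 1.42. Tapbp, which loads peptides onto MHC class I, rose by 1.67, from 127 to 151 normalized counts in NPC WT to 420 to 434 in NPC Grb10 pA. The interferon-induced GTPases Gbp2b and Gbp2 rose by 1.62 and 1.44, with the caution that they are close paralogs and may share reads. Stag3, the cohesin subunit of meiosis, rose by 1.43.

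Among well-expressed genes whose groups did not overlap, the largest falls after Grb10 were of H19 and a histone gene. H19, the imprinted long noncoding RNA beside Igf2, had 283.8, 443.3 and 437.0 normalized counts in NPC WT and 36.2, 60.5 and 66.2 in NPC Grb10 pA (log2 fold change -2.90, SE 0.20, adjusted p = 6.2e-11). NPC Podxl pA was as low, at 55.8 ± 6.9, so that against the shared WT libraries both truncation lines were low in H19. In ESCs of both lines H19 was at or near 0. H3f4, a histone H3 gene, went from 231 to 272 normalized counts to 36.7 to 57.7 (log2 fold change -2.41, SE 0.20). H2bc9, a histone H2B gene, fell by 1.37 on the log2 scale, with near-identical paralogs whose reads may be shared. The other leading falls off chromosome 8 were Crmp1, a neuronal phosphoprotein of axon guidance (-1.49), Trim2, a ubiquitin ligase of neurons (-1.40), and Fam83h, a keratin-binding scaffold (-1.30).

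Insulin and IGF signalling, in which GRB10 acts, was examined from ligands and receptors to targets. Of 37 tested members of the list, 3 were up-regulated and 4 down-regulated (18.9%, beside 16.5% of all genes), and their median log2 fold change was 0.00. Grb10 itself, the target of the truncation, is counted among the 4. Percentages of the lists below are shares called in either direction too, beside the same 16.5%. Of the receptors, Igf1r rose from 190 to 254 normalized counts in NPC WT to 329 to 424 in NPC Grb10 pA (log2 fold change 0.70, SE 0.13, adjusted p = 0.00029), and it also rose in ESCs (0.53). Insr, the insulin receptor on chromosome 8, had a log2 fold change of -0.23 (SE 0.10, adjusted p = 0.10), or 0.25 relative to its chromosome. The binding proteins went opposite ways. Igfbp2, a secreted carrier of IGFs, rose from 1641 ± 72.4 to 4192 ± 449 normalized counts (log2 fold change 1.35, adjusted p = 7.5e-08), while Igfbp4 fell by 0.67 (adjusted p = 0.030), a call that did not hold without NPC Grb10 pA replicate 1 or 2 or NPC WT replicate 2 or 3.

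Within the cell, the adaptor Irs2 on chromosome 8 had a log2 fold change of -0.19 (SE 0.12) and did not pass the test, and Irs1, at most 15.1 normalized counts in any NPC library, had one of -0.91 and was not called. Pik3r2, a regulatory subunit of PI3-kinase on chromosome 8, fell by 0.81, but its log2 fold change was -0.33, below the cutoff, relative to its chromosome. Ptpn1, a phosphatase of the insulin receptor, fell by 0.53. Foxo1, the forkhead factor that insulin signalling keeps out of the nucleus, rose by 0.59 (adjusted p = 0.00087). The call on Ptpn1 did not hold without NPC Grb10 pA replicate 3, nor that on Foxo1 without NPC WT replicate 1. The other adaptors of the Grb10 family, Grb7 and Grb14, had log2 fold changes of -0.45 and -0.23 and were not called. Of 26 members of the mTORC1 pathway, 2 were up-regulated and none down-regulated (7.69%), with a median of -0.01. Both of these, Ddit4 (0.73) and Sesn1 (0.77), encode inhibitors of mTORC1 that are induced by stress. Other inhibitors of mTORC1 on the list were not called, and their log2 fold changes went in both directions. Eif4ebp1, the translation inhibitor that mTORC1 phosphorylates, had 3470 to 3879 normalized counts in NPC WT and 2453 to 3021 in NPC Grb10 pA. Its log2 fold change of -0.46 was under the cutoff, and it was 0.02 relative to chromosome 8, where it lies.

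Imprinted genes changed in both directions. Of 38 tested, 6 were up-regulated and 6 down-regulated (31.6%), Grb10, Ddc and H19 among the latter, and the median was 0.02. Peg3, a paternally expressed zinc finger gene, rose from 592, 832 and 770 normalized counts in NPC WT to 1343, 1665 and 1629 in NPC Grb10 pA (log2 fold change 1.07, SE 0.10, adjusted p = 1.3e-08), and by 0.67 in ESCs. Snrpn, of the Prader-Willi cluster, rose by 0.78 in NPCs and 0.91 in ESCs. Nnat, a membrane proteolipid gene within an intron of Blcap, rose by 1.31 in NPC Grb10 pA, while in NPC Podxl pA it was far lower than in the same WT libraries (-3.06). Mest, a hydrolase gene expressed from the paternal allele, fell by 0.67 in NPCs and by 1.41 in ESCs, and was lower in NPC Podxl pA too (-0.52). Plagl1, a zinc finger factor that regulates other imprinted genes, fell by 0.81, and Mirg, a noncoding RNA of the Dlk1-Dio3 region, by 0.56. The other imprinted genes up-regulated were Sfmbt2 (0.59), Zrsr1 (0.60), which lies within Commd1, and Mkrn3 (0.86), and without 1 or another library Mkrn3 and Plagl1 were not called. Igf2 itself had a log2 fold change of -0.30 and was not called.

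Neural progenitor genes moved both ways, with Sox1 in front. Of 22 listed genes 16 were tested, and 3 were up-regulated and 6 down-regulated (56.2%), with a median of -0.12. Sox1 had 391.0, 372.7 and 345.8 normalized counts in NPC WT and 102.9, 141.8 and 114.1 in NPC Grb10 pA. The mutant libraries did not overlap with WT and lay above the 22 ± 3.7 of ESC WT. The log2 fold change of Sox1 was -1.66 (SE 0.12, adjusted p = 1.0e-10), and -1.18 relative to chromosome 8, where it was still called. NPC Podxl pA was lower in Sox1 as well (-0.63, called). Nes, which encodes the progenitor intermediate filament nestin, fell by 1.40 on the log2 scale, from 91.2 to 119 normalized counts to 37.3 to 44.2. Pax6, a factor of the forebrain and spinal cord, fell by 1.12 (adjusted p = 0.0073), from a low level of 36.8 ± 5.4. Cdh2, the N-cadherin that neural cells put in place of E-cadherin, fell by 1.21, Lfng, which modifies Notch receptors, by 1.28, and Vim, the filament protein vimentin, by 0.59. Rises were seen for Sox2 (0.53), which pluripotent and neural cells share, and for the zinc finger factors Zic2 (0.99) and Zic5 (0.62). Zic2 rose from 203 to 231 normalized counts to 382 to 488. Sox3, the other SoxB1 gene, had a log2 fold change of -0.01. The calls on Sox2 (without NPC Grb10 pA replicate 2 or NPC WT replicate 1) and Vim (without NPC WT replicate 3) were lost when a single library was left out.

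Patterning and neuronal genes were mostly lower where they changed. Of 15 tested patterning genes, 1 was up-regulated and 6 down-regulated (46.7%). Otx2, of the forebrain and midbrain and of the epiblast, rose by 0.86 (127 to 153 normalized counts in NPC WT, 220 to 265 in NPC Grb10 pA). Gbx2, which sets the anterior hindbrain against the Otx2 domain, fell by 1.17 (164 to 203, then 63.0 to 108). Of the hindbrain Hox genes, Hoxb1 fell by 0.96. En2, Hoxa2, Msx1 and Irx3 fell too, the last of them on chromosome 8 and not called relative to it (-0.37), with no more than 75.5 normalized counts each in any NPC library, and each of these 4 calls was lost without at least 1 of the libraries. Of 14 tested genes of early neurons, 1 was up-regulated and 6 down-regulated (50%), and the median was -0.62. Their summed level was 1376 to 1457 normalized counts in NPC WT and 662 to 763 in NPC Grb10 pA. Tubb3, the neuronal tubulin on chromosome 8, had 336.6, 280.8 and 290.8 normalized counts in NPC WT and 90.8, 72.1 and 75.8 in NPC Grb10 pA, a log2 fold change of -1.89 (SE 0.10, adjusted p = 8.6e-13). It was -1.41 relative to its chromosome, and -1.55 in ESCs, where Tubb3 was higher (659 ± 21.4 in WT). Ina, the neurofilament protein internexin, fell by 0.89, Stmn2, a regulator of microtubules in growth cones, by 0.79, and Crmp1 by 1.49. Gap43 (-1.71), a protein of growth cones, and L1cam (-1.07), an axonal adhesion molecule, fell from at most 30.7 normalized counts. Mapt, the microtubule protein tau, rose by 0.83 from low counts, a call that did not hold without NPC WT replicate 1 or 3 or NPC Grb10 pA replicate 2 or 3. Defining genes of differentiated neurons such as Dcx, Neurod1, Syt1 and Snap25 were too low to be tested.

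Pluripotency genes changed in both directions. Of 24 tested, 5 were up-regulated and 3 down-regulated (33.3%), with a median of -0.14. Nanog had 492.1, 518.1 and 578.5 normalized counts in NPC WT and 795.1, 864.9 and 843.0 in NPC Grb10 pA (log2 fold change 0.66, SE 0.09, adjusted p = 3.1e-06). Esrrb, an orphan receptor of naive pluripotency, rose by 0.98, from 219 to 304 normalized counts to 442 to 555. Tfcp2l1 rose by 0.53 and Utf1, a chromatin factor of undifferentiated cells, by 0.60. Nanog and Esrrb still lay well under ESC Grb10 pA (4225 ± 419 and 3442 ± 158), whereas Utf1 was higher in NPC Grb10 pA (1829 ± 176) than in ESC Grb10 pA (357 ± 32.5). Pou5f1 had a log2 fold change of -0.16 (SE 0.12, adjusted p = 0.33). Klf2, a naive factor on chromosome 8, fell by 1.54, and by 1.06 relative to its chromosome, and Klf4 fell by 0.72. L1td1, an RNA-binding protein of pluripotent cells, fell by 0.63, and Nr0b1, an orphan receptor, rose by 0.62. The calls on Tfcp2l1 (without NPC Grb10 pA replicate 2 or 3), Klf4 (without NPC WT replicate 3) and Nr0b1 (without NPC Grb10 pA replicate 1 or NPC WT replicate 2) were lost when a single library was left out. Zfp42, also on chromosome 8, had a log2 fold change of -0.47 and one of 0.01 relative to the chromosome. The summed level of the list was 18450 to 19790 normalized counts in NPC WT and 18010 to 18160 in NPC Grb10 pA.

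Markers of other lineages that the cultures could hold were counted in the same way. Of 11 tested genes of mesoderm and caudal epiblast, 2 were up-regulated and 5 down-regulated (63.6%), with a median of -1.71. Cdx2, a caudal homeobox factor, fell from 37.7, 46.3 and 55.0 normalized counts in NPC WT to 3.7, 2.3 and 14.4 in NPC Grb10 pA (log2 fold change -2.75, SE 0.36, adjusted p = 2.8e-06). Meox1, of the somites, fell by 1.72, and it was also lower in NPC Podxl pA (-1.13). Cdx4, Nkx1-2 and Wnt3a were the other genes down-regulated, all at no more than 20.4 normalized counts, and Nkx1-2 and Wnt3a had at most 1 count in any NPC Grb10 pA library. The calls on Cdx4 (without NPC Grb10 pA replicate 1) and Wnt3a (also without NPC Grb10 pA replicate 3 or NPC WT replicate 2) were lost when a single library was left out. Eomes, of the primitive streak, rose by 1.01, from 149 to 160 normalized counts to 287 to 348, and Hand1 by 1.02. T, the defining gene of nascent mesoderm, had a log2 fold change of -1.75 and was not called. Of 19 genes of extraembryonic endoderm, 1 was up-regulated and 5 down-regulated (31.6%). Gata6 fell by 0.88, Pdgfra by 0.51, Sox7 by 0.89 and Col4a1, on chromosome 8, by 0.68 (-0.20 relative to it), with Col4a2 beside it at -0.54 (-0.06 relative to it), and neither was called relative to the chromosome. Pdgfra (0.80) and Col4a1 (0.59) were called higher in NPC Podxl pA, and Pdgfra was not called in NPC Grb10 pA without NPC WT replicate 2 or 3 or NPC Grb10 pA replicate 2. Apoe rose by 0.97, and the summed level of the list overlapped between groups, at 10330 to 12870 normalized counts in NPC WT and 10350 to 12040 in NPC Grb10 pA. The defining endoderm genes Ttr, Afp and Apoa1 were too low to be tested. Of 13 genes of surface ectoderm and neural crest, 2 were up-regulated and 3 down-regulated (38.5%). Cdh1, the E-cadherin gene on chromosome 8, fell by 0.73, and by 0.25 relative to its chromosome, where it was not called, while the keratin genes Krt18 and Krt19 rose by 0.58 and 1.06. Foxd3, of the neural crest, fell from 7.55 to 12.1 normalized counts to at most 1.6. The part of these lineages in the other results was not tested.

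Signalling pathways were described by receptors, factors and targets, beside 16.5% of all genes called in either direction. Of 17 Notch genes, 4 were up-regulated and 1 down-regulated (29.4%). Notch1 and Notch3, both receptors, rose by 0.51 and 0.63, Rbpj, the DNA-binding factor of the pathway, by 0.89 (639 to 699 normalized counts, then 1134 to 1321), and its target Hes1 by 0.62. Notch1 was not called without NPC Grb10 pA replicate 2 or NPC WT replicate 3. Of 34 Wnt genes, 2 were up-regulated and 7 down-regulated (26.5%). Notum, a secreted enzyme that inactivates Wnt proteins and is a Wnt target, had 48.3, 51.3 and 36.2 normalized counts in NPC WT and 4.2, 8.1 and 8.0 in NPC Grb10 pA (log2 fold change -2.86, SE 0.28, adjusted p = 2.4e-08). The Wnt-responsive factors Sp8 and Lef1 fell by 1.72 and 0.86, the Wnt antagonist Dkk1 and the ligand Wnt8a fell by 2.21 and 1.43, and Tcf7l1 and Tcf7l2 rose by 0.69 and 0.98. Axin2, the most used reporter of the pathway, had a log2 fold change of -0.40 and was not called. Of 22 genes of FGF and ERK feedback, 4 were down-regulated and none up-regulated (18.2%), with a median of -0.35. Spry2 and Spry4, inhibitors that ERK induces, fell by 0.90 and 0.82, and Dusp4 on chromosome 8 by 0.63, but relative to it Dusp4 had -0.15 and was not called. Dusp6 (-0.44) and Etv4 (-0.42) did not pass the cutoff. Of 16 BMP genes, 1 rose (Id2, 0.62) and 1 fell (Gdf3, -0.51, not called without NPC Grb10 pA replicate 1 or NPC WT replicate 2), or 12.5%, beside 16.5% of all genes.

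Many genes of glycolysis and the hypoxia response rose. Of 27 tested, 17 were up-regulated and none down-regulated (63%, beside 7.90% of all genes up-regulated), and their median log2 fold change was 0.55, beside 0.01 over all genes. The summed level of the list was 69430 to 77720 normalized counts in NPC WT and 114500 to 123400 in NPC Grb10 pA. Slc2a3, a glucose transporter, rose from 10050, 9921 and 10910 normalized counts to 21640, 20540 and 21200 (log2 fold change 1.04, SE 0.07, adjusted p = 8.5e-11), and the transporter Slc2a1 rose by 0.68. Of the enzymes, hexokinase Hk1 rose by 1.03, Gpi1 by 0.94, Tpi1 by 0.83 and Pgk1 by 0.86. Aldoa, the main aldolase, rose from 8099, 7096 and 7021 normalized counts to 16480, 16980 and 15280 (log2 fold change 1.13, SE 0.08, adjusted p = 3.1e-10), without overlap between groups. Bnip3, a mitophagy receptor induced by hypoxia, rose by 1.31 and Ndrg1, another hypoxia target, by 1.06. Pdk1, Vegfa and Adm, also targets of the hypoxia response, had log2 fold changes of -0.03, 0.00 and 0.02. In ESC Grb10 pA, 9 of the 27 were up-regulated and none down-regulated. Of the 17, 6 were not called without NPC Grb10 pA replicate 1 and 5 without NPC WT replicate 2, all of them with log2 fold changes of at most 0.64, such as Ldha (0.56), which makes lactate, and Pfkl (0.52), a phosphofructokinase.

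Other metabolic and growth genes were counted in the same way, beside 16.5% of all genes called in either direction. Of 24 genes of cholesterol synthesis, 3 were up-regulated and 2 down-regulated (20.8%), with Dhcr7, the last enzyme of the pathway, at 0.68 and Hsd17b7, an earlier enzyme of it, at -0.61. Of 81 ribosomal protein genes, 1 rose (Rpl39l, 0.88) and 1 fell (Rpl13, on chromosome 8, -0.71, and not called relative to it, at -0.23), or 2.47%, and their median was 0.00. Of 12 tested genes of the mitochondrial genome, 4 were up-regulated (33.3%), with mt-Co1, a subunit of cytochrome oxidase, at 0.86. None of these 4 calls held without NPC WT replicate 2, and without each of the other libraries 1 or 2 of them were lost. It was higher in NPC Podxl pA as well (1.90) and lower in ESC Grb10 pA (-0.89). NPC WT libraries were spread widely here, from 1408 to 3627 normalized counts of mt-Co1, and mitochondrial genes held 0.226% to 0.801% of the counts in NPC WT and 0.451% to 0.608% in NPC Grb10 pA, so that the shares overlapped. Of 24 genes of the G1 phase, 6 were down-regulated and none up-regulated (25%), among them the cyclins Ccnd1 (-0.58), Ccnd2 (-0.73) and Ccne2 (-0.55), the kinase Cdk6 (-0.77) and the factors E2f3 (-0.58) and E2f4 (-0.54), the last of them on chromosome 8 and not called relative to it (-0.06). The calls on Ccne2, E2f3 and E2f4 did not hold without NPC Grb10 pA replicate 1. Of 21 p53 targets, 1 was up-regulated and 3 down-regulated (19%), with Perp at -0.97, Gdf15 at -1.05 (on chromosome 8, and -0.57 relative to it, still called) and Cdkn1a, the best known target, at 0.08.

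CTCF and cohesin genes were of interest because the study concerns chromatin loops that they form. Of 22 tested, 1 was up-regulated and 2 down-regulated (13.6%, beside 16.5% of all genes). Ctcf, which lies on chromosome 8, had 1019, 982.1 and 1012 normalized counts in NPC WT and 740.5, 751.0 and 722.6 in NPC Grb10 pA. The groups did not overlap, and the log2 fold change was -0.44 (SE 0.07, adjusted p = 5.0e-05), under the fold cutoff, and 0.04 relative to the chromosome. In ESCs, Ctcf was down-regulated by 0.64, where the median of chromosome 8 was -0.49. At the protein level, the study saw no changes of CTCF or Rad21 in the truncation lines by western blot. The cohesin subunit Rad21 had a log2 fold change of 0.03 (SE 0.08) and Smc3 one of 0.25. Mau2, a cohesin loader on chromosome 8, fell by 0.60, but relative to it Mau2 had -0.12 and was not called. Ddx5, an RNA helicase that binds CTCF, fell by 0.54 (not called without NPC Grb10 pA replicate 2), and Zfp143, a zinc finger protein found at loop anchors, rose by 0.70.

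**Figure D4:**
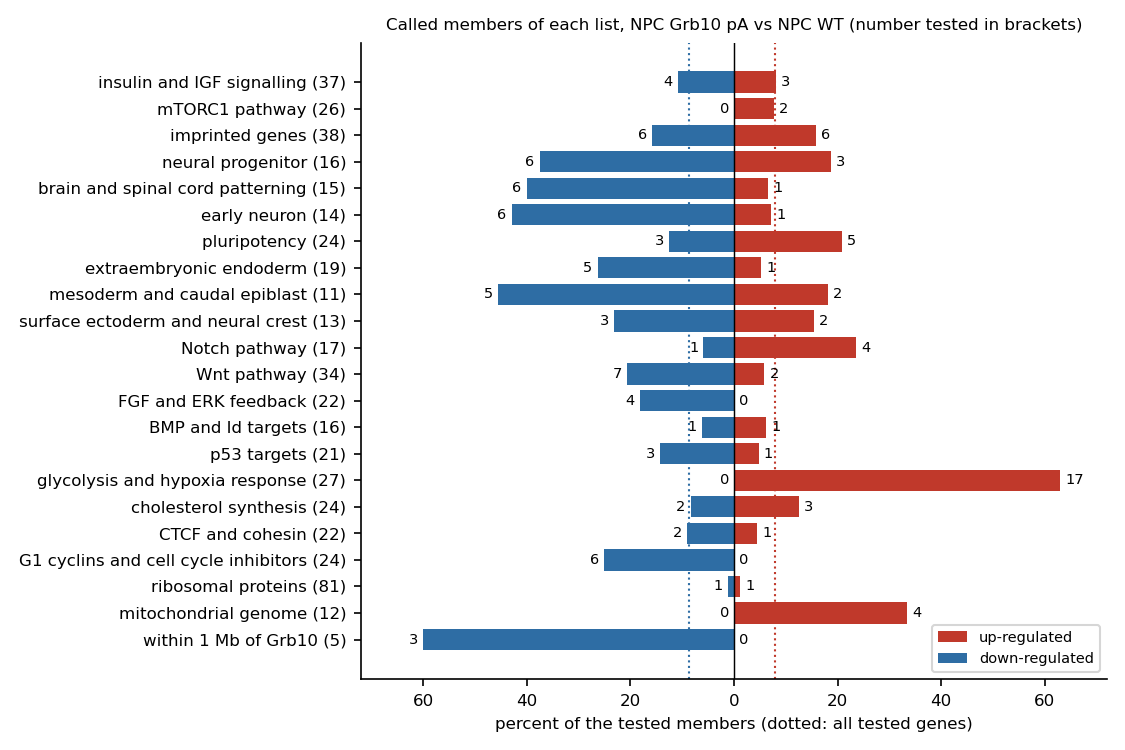
Percent of the tested members of each list (number tested in brackets) that were up-regulated (red, right) or down-regulated (blue, left) in NPC Grb10 pA against NPC WT, with the numbers of genes at the bars and dotted lines at the percentages over all tested genes. Glycolysis and the hypoxia response had 17 up-regulated and no down-regulated genes. Neural progenitor, patterning, early neuron and caudal genes had 5 or 6 down-regulated and 1 to 3 up-regulated genes each. The Wnt, imprinted, G1 and extraembryonic endoderm lists had 5 to 7 down-regulated genes as well, and no more than 6 up-regulated. Grb10 itself is counted in the lists that hold it.

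The Grb10 pA line was also compared with WT as ESCs, in libraries that the NPC comparison did not use. Of the genes dysregulated off chromosome 8, 324 were called in both cell types, which is 17.3% of the 1870 of NPCs and 35.4% of the 914 of ESCs (7.29% of genes tested). Of these, 200 were up-regulated in both, 101 down-regulated in both and 23 went opposite ways. Across the 12531 genes off chromosome 8, log2 fold changes in the 2 cell types had a Pearson correlation of 0.305, as a description over genes that are not independent. On chromosome 8, 184 genes were called in both, 182 of them lower in both, out of 292 (39.6%) called in ESCs. The difference between the effects in NPCs and ESCs passed the test for 934 genes (7.04%), with 451 (3.40%) higher and 483 (3.64%) lower in NPCs. Without NPC WT replicate 2 this number was 547, without ESC WT replicate 1 it was 594, without NPC Grb10 pA replicate 3 it was 610, and without NPC Grb10 pA replicate 2 it was 621. Sox1 had a log2 fold change of -1.66 in NPCs and 0.42 in ESCs, and this difference passed the test (adjusted p = 1.9e-05), as did those of Gbx2 (-1.17 and 0.61), Cdx2 (-2.75 and 0.93) and Zic2 (0.99 and -0.32). Cdx2 was low in ESCs, at mean normalized counts of 10.9 in WT and 21.4 in Grb10 pA. The fall of Tubb3 and Crmp1 was seen in both cell types, and their differences did not pass the test.

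**Figure D5:**
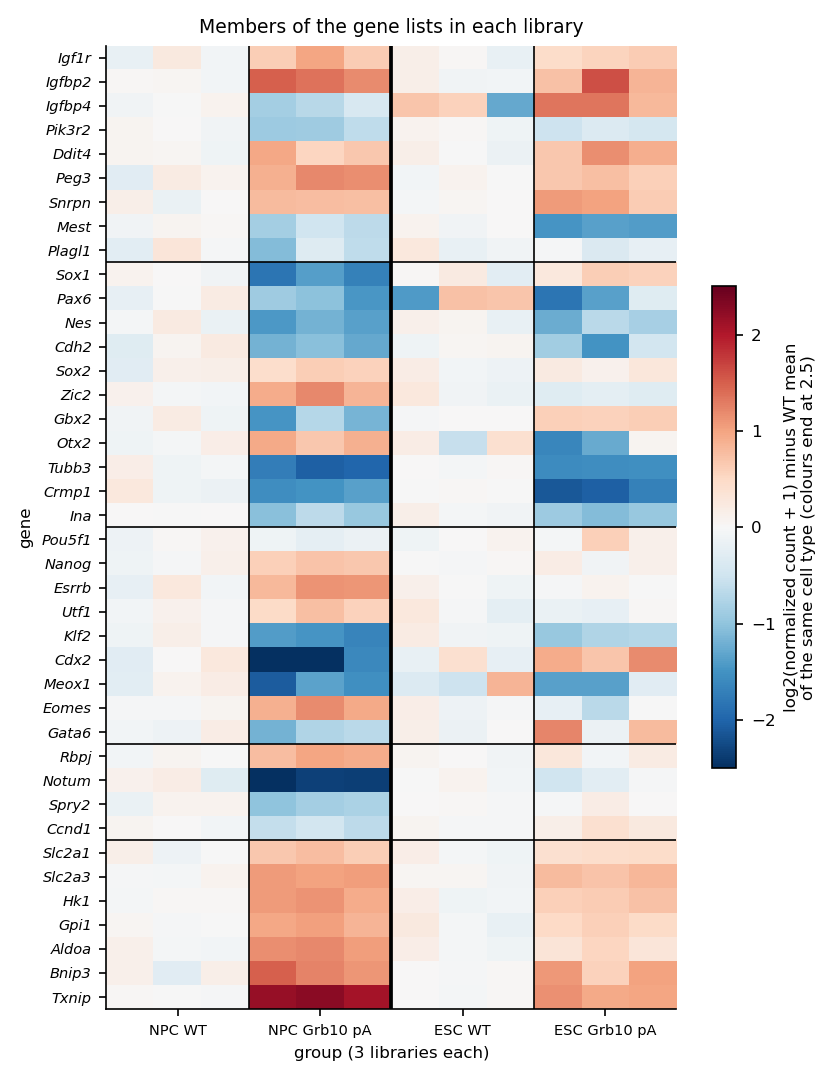
Log2 of the normalized count plus 1 minus the mean of the WT libraries of the same cell type (colour, ending at 2.5 in either direction) for 40 genes (rows) in the 12 WT and Grb10 pA libraries (columns). The genes are list members picked after their values were seen. Txnip, Slc2a3 and Igfbp2 were higher in the 3 Grb10 pA libraries of both cell types, while Sox1, Gbx2 and Cdx2 were lower only in those of NPCs among the groups drawn.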

How the data were processed

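RNA was depleted of ribosomal RNA and primed with random hexamers, per the labels. The authors aligned reads to mm10 with STAR and counted them on genes with featureCounts. The deposited values are whole-number counts per gene, not normalized and counted without strand, so that overlapping genes on opposite strands were not told apart. Versions and the gene annotation of the counting are not given in the sources used here. The table held 3 columns that match no sample label, and these were not used.

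The 18 libraries with a label were fitted in 1 model with edgeR 4.0.16 in R 4.3.3 (a mean for each of 6 groups, TMM factors, filterByExpr on low counts), which left 13268 of 55291 genes. Comparisons used the quasi-likelihood F test, p-values were adjusted by Benjamini-Hochberg over all genes tested, and calls took the cutoffs (adjusted p of 0.05, log2 fold change of 0.5) that the authors used with DESeq2. The SE is the log2 fold change divided by the square root of F. p-values measure the spread between libraries, which the study calls biological replicates. The samples were mapped to groups by their titles. Gene positions came from GENCODE M21 (96.2% of symbols matched 1 gene) and, for 1181 more, from RefSeq on GRCm38.p6. Replicate libraries of a group differed beyond counting noise, so that none was taken as deposited more than once. The script was tested on simulated data.

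The members and gene lists were chosen with earlier results of these data known. Genes named were Grb10, tested genes within 1 Mb of it, the 10 largest rises and falls (and 5 each on chromosome 8) among called genes whose groups did not overlap and whose mean was 100 normalized counts or more, called members of the lists and a set of central members. Other genes named, such as Grb7, Igf2, Sox3, Axin2, T, Cdkn1a, Vegfa and Gpi-ps, were picked after their values were seen. To show values relative to chromosome 8, its median in each cell type was put into the offsets of the model. Alternatives were DESeq2 1.42.0, RLE size factors, no filter, 10 or more counts throughout, a fit of just the compared groups, a replicate block, other cutoffs, chromosome 8 left out or centred, and each library left out.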

Additional observations from a re-analysis of the deposited data

Results flagged for a closer look

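Of the genes named in the results and among the other observations, 63 had an effect of Grb10 pA in NPCs that differed from that in ESCs by the interaction test (adjusted p between 1.1e-10 and 0.050, edgeR's quasi-likelihood test). They are given as the log2 fold change in NPCs minus that in ESCs.

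Around the target and among the leading rises, the difference was -1.96 for Grb10, -1.35 for Ddc, 1.15 for Txnip, 1.26 for Aldoc and 1.46 for Rras. It was 1.10 for Gm2a, 1.56 for Tapbp, 1.06 for Stag3 and 1.52 for Ap1s2. Gbp2 had 3.56, but with at most 4 normalized counts in any WT or Grb10 pA library of ESCs. Among the leading falls, it was -2.21 for H3f4, -1.07 for Trim2, -0.79 for H2bc9 and -1.07 for Fam83h. On chromosome 8, it was -2.08 for Sox1, -1.02 for Zfp423, -0.78 for Slc10a7, -0.74 for Armc6, -0.73 for Klf2 and 0.59 for Setd6.

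Neural and patterning genes had differences of 1.31 for Zic2, 0.69 for Zic5, -2.05 for Lfng, -0.93 for Vim, -1.78 for Gbx2 and -0.56 for Stmn2. Pluripotency genes had 0.58 for Nanog, 0.97 for Esrrb, -0.99 for Klf4 and 0.73 for Utf1. Genes of other lineages had -3.68 for Cdx2, 1.26 for Eomes, -1.77 for Gata6, -2.01 for Pdgfra, 0.82 for Apoe, 0.72 for Krt18 and 1.18 for Krt19. Some of these differences rest on low counts in ESCs. Mean normalized counts in ESC WT and ESC Grb10 pA were 2.95 and 6.01 for Lfng and 3.56 and 10.8 for Pdgfra. They were 7.26 and 12.6 for Gata6 and 10.9 and 21.4 for Cdx2. Nkx1-2 (-3.54) and Foxd3 (-2.52) had the same flag at no more than 12.1 normalized counts in any NPC library. Signalling genes had -1.48 for Igfbp4, 0.74 for Rbpj, -2.60 for Notum, -0.83 for Ccnd1 and -0.95 for Spry2. Mest had 0.74 and Zfp143 had 0.79. Metabolic genes had 0.75 for Aldoa, 0.43 for Gpi1, 0.45 for Tpi1, 0.84 for Arrdc4, 1.09 for Ndrg1 and 0.83 for Dhcr7, and mt-Co1 had 1.75. Of the genes picked after their values were seen, the germline genes Tex19.1 (1.47), Dnmt3l (1.28) and Sohlh2 (0.53) and the antigen presentation and interferon genes H2-K1 (1.24), H2-D1 (0.98) and Irf1 (0.76) had a higher value in NPCs. The histone genes H1f5 (-0.80), H2ac20 (-1.24), H3c11 (-0.63) and H4c11 (-0.82) had a lower one.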

How the results depend on the processing

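Dysregulated genes in NPC Grb10 pA numbered 1562 to 2197 under all alternatives except a log2 fold change cutoff of 1, which gave 623 (314 up, 309 down), 314 in ESCs, 40 members of the lists in place of 127 and 299 genes that differed between cell types. An adjusted p cutoff of 0.01 left 784 genes in ESCs and 323 that differed between cell types, and only the libraries compared left 607 of the latter. Leaving out a library gave 1812 to 2063 genes in NPCs (841 to 1000 up, 971 to 1069 down), 1007 to 1261 in ESCs, 112 to 132 list members and 547 to 1081 genes that differed between cell types. Grb10 stayed between -3.93 and -3.82, and the chromosome 8 median between -0.48 and -0.46. Of the 2195 genes, 72.5% to 83.9% were called again without 1 library. The chromosome 8 median was -0.50 with at least 10 counts in every library and -0.28 with no filter. Relative to chromosome 8, Ctcf (0.0365), Eif4ebp1 (0.0225), Insr (0.25), Irs2 (0.29) and Zfp42 (0.0143) changed sign, since all 5 lie on it. With a replicate block, 2134 genes were called in NPCs (1033 up, 1101 down), and Grb10 had -3.86. Same-numbered libraries did not deviate together in NPCs (correlations of 0.081, 0.009 and 0.032), so that the numbers were not taken as pairs. Depth limits calls on genes of low counts, and the unknown number of mutant clones limits all of them.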

Other observations

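Some gene groups that stood out were assembled after their values were seen, and so their counts are descriptions without a test. Of 27 tested germline genes, 18 were up-regulated in NPC Grb10 pA and 1 (Tdrd1) down-regulated (70.4% in all), beside 7.90% and 8.64% of all genes, with a median log2 fold change of 1.00. Their summed level was 3056 to 3363 normalized counts in NPC WT and 6268 to 6320 in NPC Grb10 pA. Dazl, an RNA-binding protein of germ cells, rose by 1.07, Mael, of the piRNA pathway, by 1.22, Sohlh2, a factor of early germ cells, by 1.16, Tex19.1, which restrains retrotransposons, by 1.30, and Dnmt3l, the cofactor of DNA methylation in germ cells, by 0.98. In ESC Grb10 pA 10 of the 27 were up-regulated. Of 20 tested genes of antigen presentation and the interferon response, 15 were up-regulated and none down-regulated (75%, beside 7.90% of all genes up-regulated), with a median of 1.01, among them Tap1 (0.92), H2-K1 (0.98), H2-D1 (0.75), Psmb8 (1.69), Irf1 (0.99) and Stat2 (0.72). None of the 20 was called in ESC Grb10 pA, where their median log2 fold change was 0.05 and replicates were less alike.

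Many replication-dependent histone genes fell. Of 50 tested, 30 were down-regulated and none up-regulated (60%, beside 8.64% of all genes down-regulated), with a median log2 fold change of -0.63. Their summed level was 38610 to 44000 normalized counts in NPC WT and 23180 to 31740 in NPC Grb10 pA. The log2 fold change was -1.12 for H1f5, a linker histone, -1.19 for H2ac20, -0.94 for H3c11 and -0.94 for H4c11. These genes are near-identical within each class, and their reads may be shared. In ESC Grb10 pA 2 were up-regulated and 1 down-regulated. Beside Txnip, its close relative Arrdc4, which responds to glucose as well, rose by 1.25 in NPCs.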
